A study of Mus musculus with 6 samples.

Results

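Apolipoprotein D (Apod) and the genes that load, move and take up lipoprotein lipid in brain were followed through 10 genes of the 52550 gene identifiers counted in mouse hippocampus. They were the apolipoproteins Apod, Apoe, Clu and Apoc1, the lipid exporters Abca1 and Abcg1, the cholesterol-esterifying enzyme Lcat and the receptors Lrp1, Vldlr and Lrp8. Apod was chosen by its measured difference between TBI and sham in these same libraries, so its values in that contrast are given as a description without a test. The other 9 were chosen by function, with results of these data already known. All 10 passed the filter on low counts, as did 18795 of the 52550 identifiers.

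Hippocampal RNA of 3 sham-operated and 3 traumatic brain injury (TBI) mice was taken 24 h after surgery and sequenced with 1 library per mouse. All 6 mice were male C57BL / 6 per the sample labels. The study's methods give an age of 8 to 10 weeks and call the 3 mice of a group biological replicates. TBI was a controlled cortical impact of moderate severity on the right side of the head, through a craniotomy over the parietal bone, and sham mice had the same operation without the impact, so both groups carried an opened skull and had been anaesthetised. The study describes taking the whole hippocampus and exposing that of the other hemisphere too, without naming the side that went into a library. The deposited value is 1 estimated count per gene and library, and levels are given here as CPM, counts scaled to a common library total with edgeR's TMM factors. The counts summed to between 31630936 and 41771872 per library. With 3 libraries against 3 an exact permutation test cannot give a p below 0.1. The p-values quoted judge a group difference against the differences between the libraries of these mice. Those differences include the cell and tissue content described below.

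Brain makes and circulates its own lipoproteins, apart from those of the blood. Astrocytes and microglia secrete apolipoprotein E and clusterin, ABC transporters load them with cholesterol and phospholipid, LCAT esterifies the cholesterol, and receptors of the LDL receptor family on neurons and glia take the particles up. ApoD is unlike the others in being a lipocalin, a small protein with a ligand pocket that binds arachidonic acid and other hydrophobic molecules. In the nervous system it is made by oligodendrocytes, astrocytes and perivascular cells, and it is known for its increase with age and after nerve injury.

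Before the members, 2 libraries have to be named because their cell makeup stood apart. Sham2 was highest of all 6 libraries in 7 of 7 reactive astrocyte markers, whose summed level was 4907 CPM there against 723.9 and 724.7 CPM in the other sham libraries and 646.0 to 1767 CPM in TBI. Its level of Gfap, the intermediate filament protein of astrocytes, was 4055 CPM, against 622.8 and 632.0 CPM in the other sham libraries and 540.9 to 1478 CPM in TBI. Sham2 was also lowest in 10 of 10 oligodendrocyte markers, at a summed 3171 CPM against 9450 to 11480 CPM in the other 5 libraries. In the library labelled TBI1 the 7 striatal markers, including the dopamine receptor genes Drd1 and Drd2, were all highest and summed to 3736 CPM, against 132.9 to 190.5 CPM in the others. TBI1 was also lowest in 7 of 9 hippocampal markers, among them C1ql2 of the dentate gyrus at 2.45 CPM against 39.64 to 86.0 CPM elsewhere. The hippocampal markers were all detected in all 6 libraries. Estimates without these libraries stand beside the members' results below where leaving them out moved a value most.

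**Figure D1:**
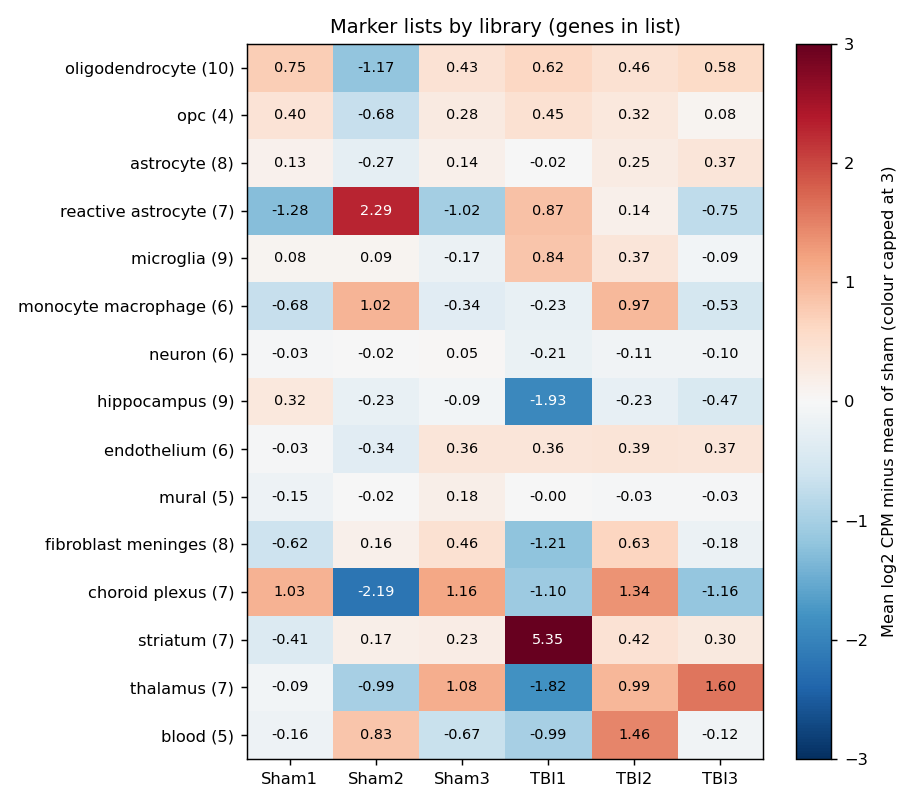
Mean log2 CPM of each marker list minus its mean over the 3 sham libraries, by library (columns), with the number of genes in the list in brackets; red is above and blue below the sham mean, and colour is capped at 3. Sham2 stands out in reactive astrocyte (2.29) and oligodendrocyte (-1.17) markers and the library labelled TBI1 in striatal markers (5.35).

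Apod was present at 138.2, 178.9 and 132.9 CPM in the sham libraries, given here and throughout in the order of their numbers, and at 306.2, 315.8 and 285.4 CPM in the TBI libraries. The groups did not overlap, and the gap between them was wide, since TBI3 as the lowest of TBI exceeded Sham2 as the highest of sham 1.60 times. Means were 150.0 ± 25.2 CPM for sham and 302.5 ± 15.6 CPM for TBI (SD, n = 3), a ratio of 2.02. The edgeR log2 fold change was 1.01 with an SE of 0.14, and it lay between 0.93 and 1.16 when any 1 library was left out. Without Sham2 it was 1.16 and without both Sham2 and TBI1 it was 1.15. In bulk tissue more RNA per cell and more cells that make it cannot be told apart.

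The gene lies on chromosome 16 of GRCm38 at 31296192-31314808, on the minus strand, with 2577 exon bases in 5 blocks, and its exons overlap those of no other annotated gene. The RefSeq window of 250 bases before and 50 bases after its start (GRCm38.p6, minus strand, chr16:31314759-31315058) is shown because Apod is the member whose groups were apart, and those of Apoe (chr7:19699139-19699438, minus strand) and Abca1 (chr4:53159846-53160145, minus strand) are set beside it as the most abundant member and the exporter whose transcription is the standard readout of the sterol-sensing LXR receptors. Capitals mark matches to 8 short motifs searched on both strands, whose letters are given after the sequences, and the printed matches do not overlap one another.
Apod: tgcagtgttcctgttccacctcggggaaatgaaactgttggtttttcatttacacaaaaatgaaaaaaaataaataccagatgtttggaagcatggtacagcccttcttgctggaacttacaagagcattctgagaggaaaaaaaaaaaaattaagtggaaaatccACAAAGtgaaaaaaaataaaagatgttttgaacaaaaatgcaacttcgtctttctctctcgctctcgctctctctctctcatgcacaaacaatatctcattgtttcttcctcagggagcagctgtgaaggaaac
Apoe: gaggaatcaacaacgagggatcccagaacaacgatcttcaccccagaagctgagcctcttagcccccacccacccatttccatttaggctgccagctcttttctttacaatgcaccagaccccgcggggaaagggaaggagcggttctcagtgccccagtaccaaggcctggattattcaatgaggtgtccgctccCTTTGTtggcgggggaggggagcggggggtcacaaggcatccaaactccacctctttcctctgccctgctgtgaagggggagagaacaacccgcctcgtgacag
Abca1: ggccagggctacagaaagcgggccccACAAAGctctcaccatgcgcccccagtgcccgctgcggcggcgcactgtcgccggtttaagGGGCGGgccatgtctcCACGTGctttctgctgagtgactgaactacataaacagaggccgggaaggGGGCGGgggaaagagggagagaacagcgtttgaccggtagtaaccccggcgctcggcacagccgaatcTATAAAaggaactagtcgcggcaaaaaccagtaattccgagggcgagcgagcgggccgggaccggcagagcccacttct

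The Apod window was poor in G and C, at 37.3%, and 6.19% of the 32851 windows of the table had a lower share, against a median of 52.7%. It held 1 motif match, the SOX motif ACAAAG at 84 bases before the start, which 18.7% of all windows hold. The Apoe window (57.7% G and C) held the same motif on the opposite strand, 54 bases before the start, and the Abca1 window (62.7%) held 5 matches, among them TATAAA 29 bases before the start. The TATA box (TATAAA) was in 13.6% of all windows, the E-box (CACGTG) in 7.15%, the GC box (GGGCGG) in 35.7% and the CCAAT box in 37.4%. The nuclear receptor half-site (AGGTCA) was in 16.3%, the AP-1 motif (TGANTCA) in 7.81% and the STAT motif (TTCNNNGAA) in 8.30%. A match is a description of these letters, not of a bound site. Of the 10 members, 7 had a window (12 in all, since Apoe, Vldlr and Lrp8 have several starts), and Clu, Apoc1 and Abcg1 were not matched.

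Apoe, the main lipid carrier of brain lipoproteins and an LXR target, was the most abundant member per exon length in both groups. It was found at 1533, 939.9 and 1243 CPM in the sham libraries and 1297, 1510 and 1544 CPM in those of TBI. Sham1 was as high as the TBI libraries and Sham2 was the lowest of all, so the groups overlapped widely. Means were 1239 ± 297 CPM for sham and 1451 ± 134 CPM for TBI, and the log2 fold change was 0.23 (SE 0.19, 95% interval -0.23 to 0.69). It was 0.063 without Sham2 and 0.41 without Sham1, the ends of its range with 1 library left out. Apoe lies on chromosome 7 at 19696109-19699188, a short distance from Apoc1 at 19689481-19692660 on the same strand. Of the other members on GRCm38, Clu lies on chromosome 14 at 65968483-65981547, Abca1 on chromosome 4 at 53030787-53159895 and Abcg1 on chromosome 17 at 31057675-31117988. Lcat lies on chromosome 8 at 105939551-105943382, Lrp1 on chromosome 10 at 127538161-127621148, Vldlr on chromosome 19 at 27216484-27254231 and Lrp8 on chromosome 4 at 107802261-107876840. The exons of each were free of overlap with any other annotated gene.

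Clu, clusterin or apolipoprotein J, is a secreted chaperone and lipid carrier of astrocytes. It was present at 869.2, 953.2 and 789.8 CPM in the sham libraries and at 861.7, 790.1 and 681.5 CPM in TBI. TBI3 was the lowest library and TBI1 lay within the sham range. Means were 870.7 ± 81.7 CPM for sham and 777.8 ± 90.7 CPM for TBI, and the log2 fold change of -0.16 (SE 0.13, 95% interval -0.48 to 0.15) ran from -0.24 without TBI1 to -0.081 without TBI3. Apoc1, a small exchangeable apolipoprotein that inhibits lipoprotein lipase and cholesteryl ester transfer, was the scarcest member. It had estimated counts of 24, 33 and 46 in sham and 30, 29 and 88 in TBI, that is 0.59, 0.82 and 1.20 CPM against 0.73, 0.92 and 2.47 CPM. TBI3 alone was above the sham range, and the log2 fold change of 0.66 (SE 0.58, 95% interval -0.74 to 2.05) became -0.084 without TBI3 and was at most 0.96, without TBI1.

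Taken per kilobase of exon, Apod made up 5.24%, 8.82% and 5.97% of the summed level of the 4 apolipoproteins in the sham libraries and 12.2%, 11.6% and 10.7% in those of TBI. Its level per kilobase was 7.48%, 15.8% and 8.87% of that of Apoe in sham and 19.6%, 17.4% and 15.3% in TBI. Here Sham2, where Apoe was low, fell inside the TBI range, while Sham1 and Sham3 lay below it. The summed level of the 4 apolipoproteins was 1024, 787.5 and 864.6 CPM per kilobase in sham libraries and 977.4, 1060 and 1035 CPM per kilobase in those of TBI. These sums include Apod and are given without a test.

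**Figure D2:**
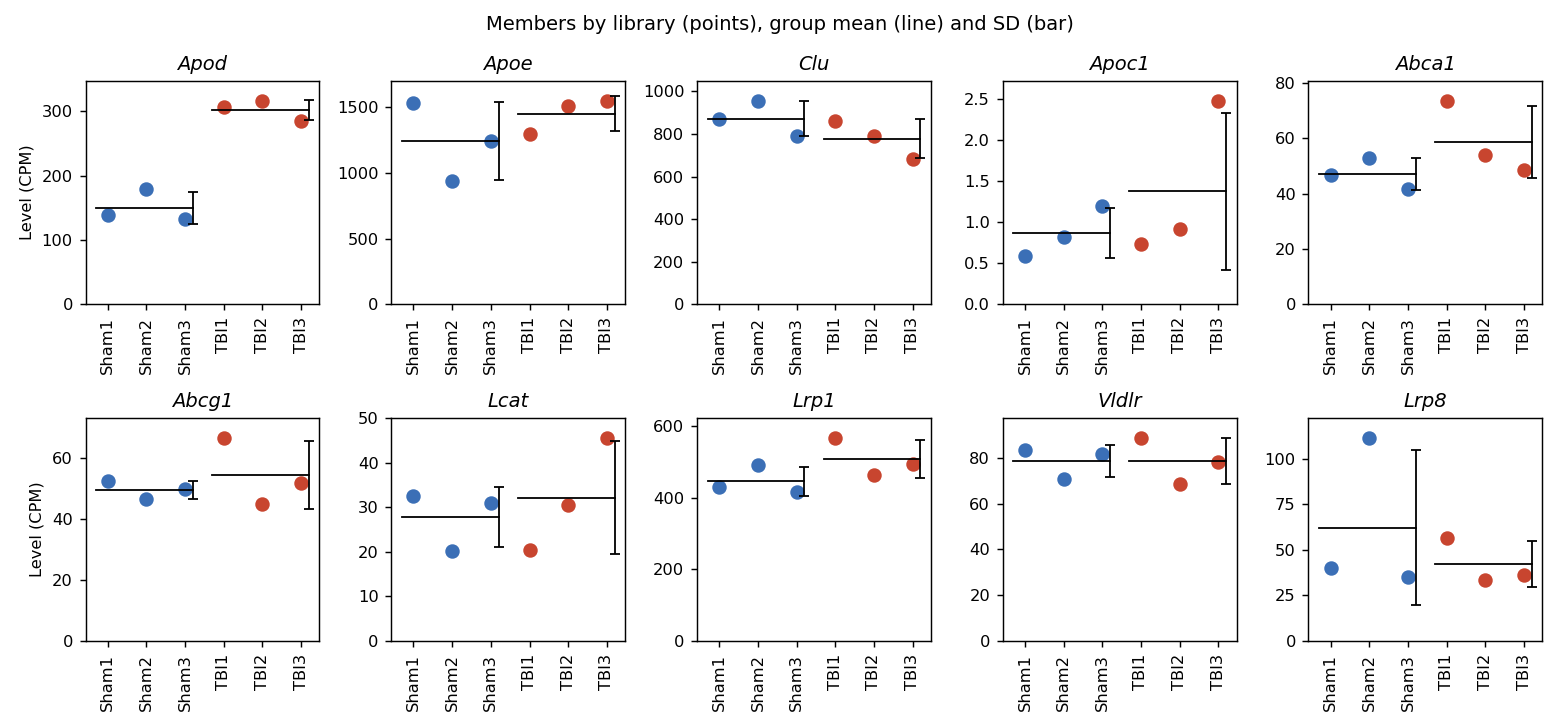
Level in CPM (vertical axes, from 0) of the 10 genes in each sham (blue) and TBI (red) library; lines are group means and bars are SD of 3 libraries. Apod is the gene whose 3 TBI points (285.4 to 315.8 CPM) all lie above the 3 sham points (132.9 to 178.9 CPM).

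Abca1 exports cholesterol and phospholipid onto lipid-poor apolipoproteins, and Abcg1 adds sterol to particles already formed. Abca1 was found at 46.7, 53.0 and 41.6 CPM in sham libraries and at 73.3, 53.9 and 48.5 CPM in TBI libraries. TBI1 was the highest and TBI3 lay inside the sham range. The log2 fold change of 0.32 (SE 0.19, 95% interval -0.13 to 0.77) was 0.12 without TBI1 and 0.43 without TBI3. Abcg1 was at 52.4, 46.4 and 49.6 CPM in sham and 66.4, 44.9 and 51.6 CPM in TBI, with a log2 fold change of 0.13 (SE 0.17, 95% interval -0.26 to 0.53). TBI1 was again the highest, and without it the log2 fold change was -0.036, while without TBI2 it was 0.25. Both genes were thus highest in the library whose microglial markers were highest too, at a summed 867.7 CPM in TBI1 against 437.2 to 588.3 CPM elsewhere and highest in 8 of 9 microglial genes; the part of these markers and of the striatal markers in the 2 levels was not tested.

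Lcat, the secreted enzyme that esterifies lipoprotein cholesterol and is activated by apolipoprotein E in brain, was at 32.4, 20.1 and 30.8 CPM in sham and 20.3, 30.5 and 45.5 CPM in TBI. TBI3 was highest and TBI1 was as low as Sham2. The log2 fold change was 0.21 (SE 0.33, 95% interval -0.58 to 0.99), and it was 0.020 without Sham2, 0.45 without TBI1 and -0.14 without TBI3.

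Lrp1 is the large endocytic receptor that clears apolipoprotein E particles in neurons, glia and vessel walls. It was present at 430.9, 492.2 and 416.5 CPM in sham and 567.0, 464.5 and 493.7 CPM in TBI. TBI2 lay inside the sham range and TBI3 just above its top. Means were 446.6 ± 40.2 CPM for sham and 508.4 ± 52.8 CPM for TBI, and the log2 fold change was 0.19 (SE 0.13, 95% interval -0.11 to 0.49). Without TBI1, its highest library, it was 0.10, and without Sham2 0.26. Vldlr and Lrp8, the latter also called apolipoprotein E receptor 2, bind apolipoprotein E and are the neuronal receptors for reelin. Vldlr was at 83.7, 70.8 and 81.9 CPM in sham and 88.7, 68.6 and 78.1 CPM in TBI, and its log2 fold change was -0.0053 (SE 0.14, 95% interval -0.34 to 0.33). With 1 library left out it ran from -0.10 without TBI1 to 0.077 without TBI2, with either sign. The sham range of Vldlr lay inside that of TBI.

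Lrp8 was at 39.9, 111.4 and 35.3 CPM in the sham libraries and at 56.6, 33.7 and 36.2 CPM in those of TBI. Sham2 was far above every other library, and TBI1 was the next highest. The log2 fold change of -0.56 (SE 0.47, 95% interval -1.69 to 0.57) became 0.17 without Sham2 and -0.84 without Sham3. The coefficient of variation of Lrp8 in sham was 68.6%, against 16.8% for Apod and a median of 19.2% over all genes tested. Reactive astrocyte markers were highest in the same library (7 of 7 genes) and oligodendrocyte markers lowest (10 of 10), and their part in the level of Lrp8 was not tested. The summed level of the 3 receptors was 36.4, 45.4 and 35.0 CPM per kilobase in sham and 46.2, 36.2 and 39.1 CPM per kilobase in TBI, and the groups overlapped.

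**Figure D3:**
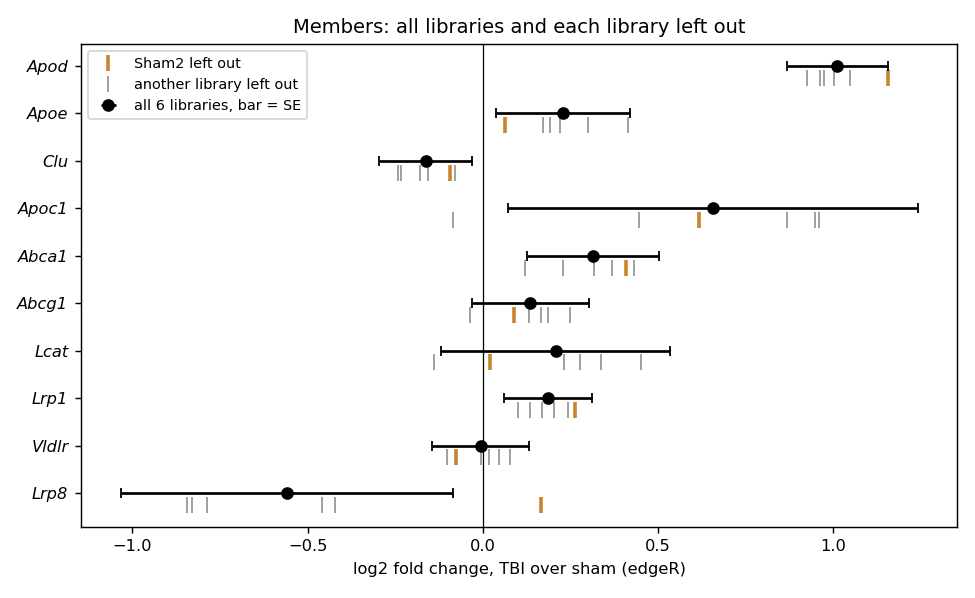
edgeR log2 fold change of TBI over sham (horizontal axis) for the 10 genes; black points and bars are the estimate from all 6 libraries and its SE, and ticks are the estimates with 1 library left out (orange for Sham2). Apod stays between 0.93 and 1.16, while Lrp8 moves from -0.56 to 0.17 without Sham2.

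Side by side, 7 members had a higher and 3 a lower estimate in TBI. Their median was 0.20 on the log2 scale, beside a median of 0.0091 and 51.4% higher over all 18795 genes tested. In the quasi-likelihood fit of edgeR, adjusted by Benjamini-Hochberg, 0 of 10 members were called at the study's limits (unadjusted p under 0.05, adjusted under 0.1, at least 1.5-fold apart in either direction), as were 0.0% of all genes. At an unadjusted p under 0.05 there was 1 member, Apod, beside 4.29% of all genes. DESeq2 with its defaults also called 1 member, again Apod, beside 0.221% of the genes it gave an adjusted p. The groups did not overlap with TBI higher for 1 member, Apod, beside 4.77% of all genes, and with TBI lower for 0 members, beside 5.45%. Since Apod was chosen from this contrast, nothing is read from these counts of 1. For the other 9 members the adjusted p ran from 0.982 to 0.997 with edgeR and was at least 0.9997 with DESeq2, and the 95% interval of each included 0.

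Per kilobase of exon the sham levels ran in the order Apoe (579 CPM per kilobase), Clu (253), Apod (58.2), Lrp1 (25.2), Lcat (20.7), Vldlr (7.83), Abcg1 (6.78), Lrp8 (5.92), Abca1 (4.55) and Apoc1 (1.17). Neighbours whose sham ranges overlapped were Lrp1 and Lcat, Vldlr and Abcg1, Abcg1 and Lrp8, and Lrp8 and Abca1. The top of the order was clear-cut, since the ranges of Apoe, Clu, Apod and Lrp1 did not touch in either group. In TBI Apod remained the third at 117 ± 6.04 CPM per kilobase, still below Clu at 226 ± 26.4 CPM per kilobase (SD, n = 3). In TBI the order differed from sham in that Abca1 (5.65 CPM per kilobase) came before Lrp8 (4.01), a pair whose ranges overlapped in both groups.

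The members were set beside the marker lists of glia and of other cell types. Over the 6 libraries the log2 level of Apod had a Pearson r of 0.18 with the oligodendrocyte markers, which were lowest in Sham2 while Apod was not. Its r farthest from 0 was -0.87, with the neuronal markers, whose mean was lower in all 3 TBI libraries than in all 3 sham libraries. Nothing is read from this r, since Apod was chosen for its difference between the same groups. Of the neuronal markers only Map2 had groups apart, at 627.5 to 1015 CPM in sham and 432.7 to 554.7 CPM in TBI. The others overlapped, with Tubb3 at 256.2 to 347.0 CPM in sham and 322.4 to 350.0 CPM in TBI. Apod per 1000 CPM of summed oligodendrocyte markers was 12.2, 56.4 and 14.1 CPM in sham and 26.7, 31.2 and 26.5 CPM in TBI. Sham2 was thus the highest library on this scale and the other sham libraries the lowest, so the groups overlapped, with means of 27.6 CPM in sham and 28.1 CPM in TBI. Per 1000 CPM of summed astrocyte markers Apod was 21.8, 46.0 and 23.6 CPM in sham and 55.0, 55.3 and 49.8 CPM in TBI. The groups did not overlap, but TBI3 was only slightly above Sham2, a much narrower gap than in the level itself. These ratios contain the Apod values by which Apod was chosen and are given as a description. The oligodendrocyte markers themselves summed to 10120 to 11480 CPM in TBI, to 9450 CPM in Sham3, to 11300 CPM in Sham1 and to 3171 CPM in Sham2.

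**Figure D4:**
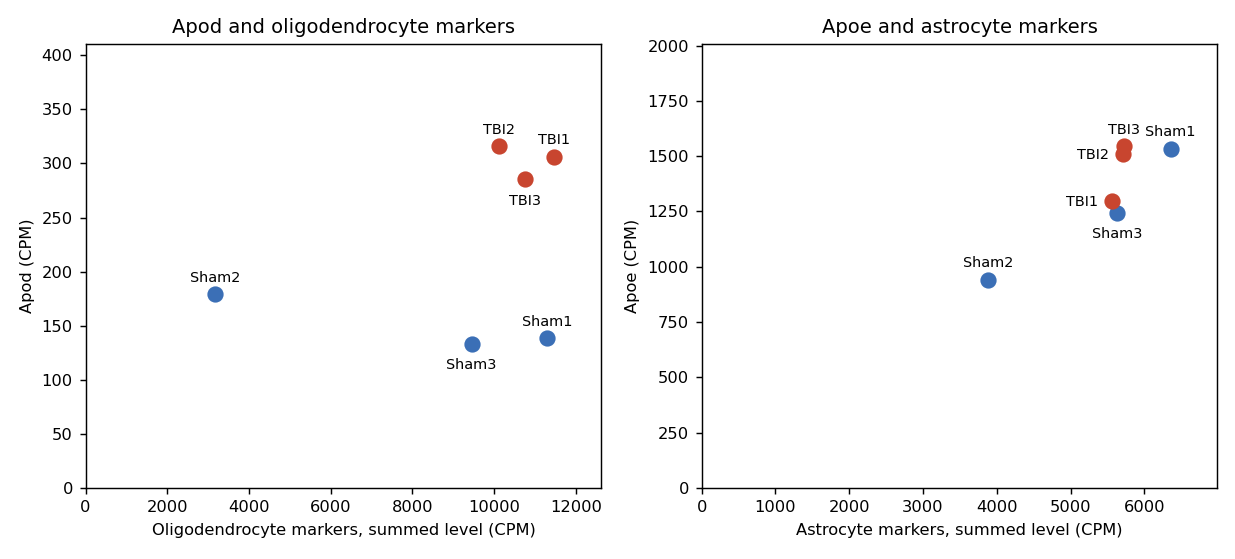
Left, Apod (CPM) against the summed level of 10 oligodendrocyte markers (CPM); right, Apoe (CPM) against the summed level of 8 astrocyte markers (CPM), with 1 point per library (blue sham, red TBI). Sham2 lies apart at 3171 CPM of oligodendrocyte markers, against 9450 to 11480 CPM in the other libraries, and Apoe is lowest in the library with the lowest astrocyte markers, 3887 CPM.

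Apoe had a Pearson r of 0.90 with the astrocyte markers over the 6 libraries and the same r of 0.90 with the oligodendrocyte markers, both lists being lowest in Sham2. Per 1000 CPM of those markers Apoe was 241, 242 and 221 CPM in sham and 233, 264 and 270 CPM in TBI (p = 0.3, two-sided exact permutation test). On this scale Sham2 lay beside Sham1, and the part of either glial list in the low Apoe of Sham2 was not tested. Lcat also had a positive r with the astrocyte markers (0.90), and Clu (-0.92) and Lrp8 (-0.93) had negative ones, the latter also with the oligodendrocyte markers (-0.87), where Spearman's rho was 0.029 and the relation rests on Sham2. Abca1 had an r of 0.95 with the microglial markers, of 0.88 with the striatal markers and of 0.92 with Lrp1. These values describe 6 points that share the libraries, their scaling and, in part, the departures of Sham2 and TBI1.

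The other genes of brain apolipoprotein handling came from 9 lists by function, 100 genes in all, of which 83 were tested. Of these 53 had a higher and 30 a lower estimate in TBI, and their median was 0.048 on the log2 scale. With edgeR 0 were called and with DESeq2 0, and 1 had an unadjusted p under 0.05, which is 1 of 83 beside 4.29% of all genes. The groups did not overlap in 4 of the 83, all with TBI higher (beside 4.77% of all genes), among them the myelin lipid transporter Abca2, the lysosomal cholesterol carrier Npc2 and the nuclear receptor Ppara, the last named after its values were seen.

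Among the 14 targets of LXR, the sterol-sensing nuclear receptors, 13 had a higher and 1 a lower estimate, with a median log2 fold change of 0.25 that was 0.057 without Sham2 and 0.40 without Sham1. Of these 14, 0 had an unadjusted p under 0.05, and the list holds 4 of the members (Abca1, Abcg1, Apoe and Apoc1). Its most abundant gene per kilobase was Scd2, the brain stearoyl-CoA desaturase, at 2144, 1183 and 1948 CPM in sham and 2123, 1933 and 2301 CPM in TBI. Sham2 was the low library there, and the log2 fold change of 0.27 (SE 0.23) became 0.050 without it and 0.44 without Sham1. Scd1 (0.35, SE 0.36) and Pltp, the phospholipid transfer protein (0.41, SE 0.47), were likewise lowest in Sham2 and had log2 fold changes of 0.019 and 0.020 without it, and of up to 0.59 and 0.69 with another library left out. Oligodendrocyte markers were lowest in that library as well, and their part in these estimates was not tested.

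Of the 17 other lipoprotein receptors 7 had a higher and 10 a lower estimate. Sort1, the sorting receptor sortilin that takes up apolipoprotein E, was the most abundant per kilobase, at 692.8, 534.5 and 623.1 CPM in sham and 548.9, 553.7 and 421.9 CPM in TBI. TBI3 was the lowest, and the log2 fold change of -0.28 (SE 0.16) was -0.17 without it and -0.18 without Sham1. Of the 16 other lipid transporters tested 11 had a higher estimate, with Scarb2, the lysosomal membrane protein, at a log2 fold change of 0.018 (SE 0.11), which turned to -0.034 without Sham2 and to -0.045 without TBI3. Abca2 was at 239.4, 156.0 and 259.3 CPM in sham and at 280.0, 262.0 and 292.3 CPM in TBI, and its log2 fold change of 0.35 (SE 0.20) was 0.16 without Sham2 and at most 0.48, without Sham3.

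Of 15 other apolipoproteins 6 were tested, led by the mitochondrial protein Apoo with a log2 fold change of 0.077 (SE 0.13) that was -0.014 without TBI3. The other 9, among them Apoa1 and Apob of plasma lipoproteins, did not pass the filter on low counts. Of the other lipocalins the most abundant per kilobase was Ptgds, prostaglandin D synthase of leptomeninges, choroid plexus and oligodendrocytes, at 486.9, 549.2 and 820.8 CPM in sham and 453.6, 1001 and 743.2 CPM in TBI. Its groups overlapped, and the log2 fold change of 0.24 (SE 0.32) was 0.49 without TBI1 and -0.056 without TBI2. Proteins reported to bind ApoD gave no separation of the groups, with Bsg (basigin) at 346.5 to 363.0 CPM in sham and 314.0 to 360.6 CPM in TBI. The leptin receptor gene Lepr was at 3.98 to 5.71 CPM in sham and 1.27 to 4.90 CPM in TBI.

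Among the 12 ligands and adaptors 6 had a higher and 6 a lower estimate. Lrpap1, the chaperone of LRP1, was at 138.0, 224.2 and 141.3 CPM in sham and 166.8, 144.1 and 139.8 CPM in TBI, with its highest level in Sham2 as for Lrp8. Its log2 fold change of -0.16 was 0.10 without that library. Of the 11 genes of lipoprotein remodelling and sterol storage 8 had a higher estimate, with Pla2g7, the lipoprotein-associated phospholipase, at a log2 fold change of 0.24 (SE 0.46) and Cyp46a1, the neuronal cholesterol 24-hydroxylase, at 0.22 (SE 0.31). Both signs turned with 1 library, Pla2g7 to -0.093 without Sham2 and to -0.14 without TBI3 (but 0.53 without TBI1), and Cyp46a1 to -0.22 without TBI1, where it was at 230.4 CPM against 93.4 to 135.2 CPM elsewhere (but 0.47 without TBI3). Of the 10 nuclear receptors and regulators 8 had a higher estimate, and the most abundant, Srebf2, had a log2 fold change of -0.042 (SE 0.15), which turned to 0.0065 without Sham2 and to 0.063 without TBI3 and was -0.17 without TBI1.

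Some of the high estimates of the lists rested on TBI1 alone. Rxrg, a retinoid X receptor of striatal neurons, was at 115 CPM in TBI1 and at 1.69 to 6.95 CPM in the other 5 libraries, so its log2 fold change of 3.11 became -0.35 without TBI1. The sorting receptor gene Sorcs1 was at 67.6 CPM in TBI1 and at 12.4 to 19.7 CPM elsewhere, and its 1.17 became 0.18. Striatal markers were highest in the same library (7 of 7), and their part in both values was not tested. Sorcs1 was named after its values were seen.

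**Figure D5:**
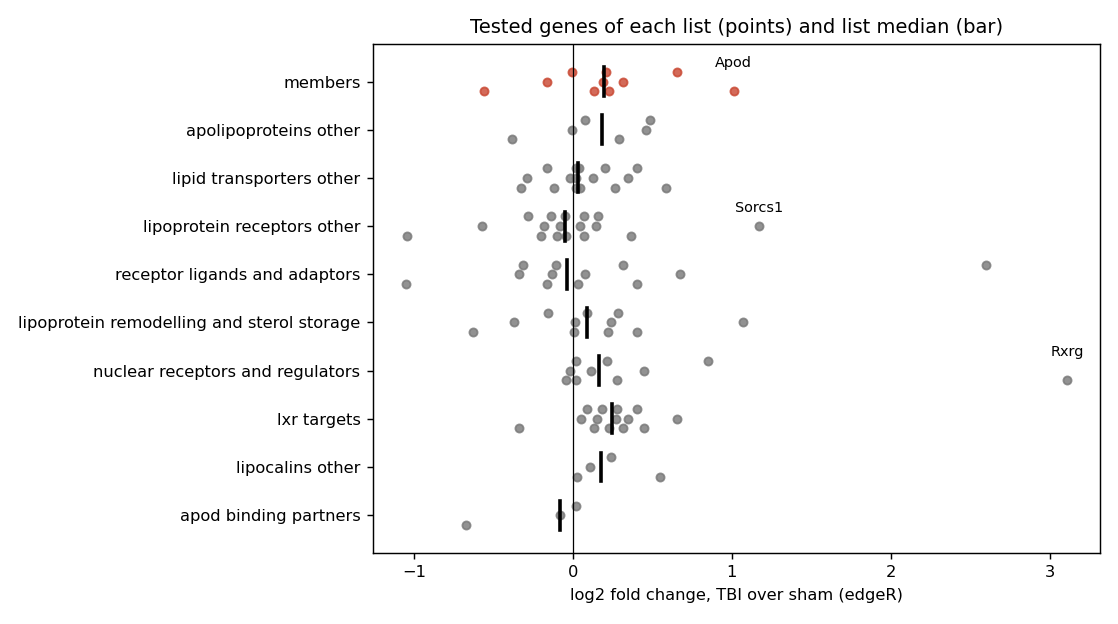
edgeR log2 fold change of TBI over sham (horizontal axis) for each tested gene of the 10 members (red) and of the 9 function lists (grey), with the list median as a bar. List medians lie between -0.080 and 0.25, and the labelled points Rxrg (3.11) and Sorcs1 (1.17) rest on TBI1.

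The genes whose pattern over the 6 libraries was most like that of Apod were sought among 10798 genes with a mean of at least 10 CPM, by Pearson r of log2 CPM. They were Sf1, a splicing factor (r = 0.99), Kdm4a, a histone demethylase (0.97), Tmco1, a calcium channel of the endoplasmic reticulum (0.97), Sardh, the mitochondrial sarcosine dehydrogenase (0.96), and Phyhd1, a dioxygenase of the phytanoyl-CoA hydroxylase family (0.96). Their changes were smaller than that of Apod. Sf1 was at 60.6 to 66.2 CPM in sham and 71.4 to 76.2 CPM in TBI, a log2 fold change of 0.23, and Phyhd1 at 8.20 to 8.87 CPM in sham and 12.7 to 15.7 CPM in TBI, a log2 fold change of 0.75. The order is loose with so few libraries, since at most 1 of the 5 remained among the 5 highest when a library was left out, and 2 did with Spearman's rho. Among the members themselves the highest r with Apod was 0.74, for Lrp1, followed by 0.69 for Abca1.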

How the data were processed

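Hippocampal RNA of 3 sham and 3 TBI mice was measured by RNA-seq. The authors used HISAT2 for alignment to GRCm38 and StringTie for quantification, after FastQC, and deposited 1 estimated count per gene and library, as whole numbers without normalization. The annotation release, strandedness and step from coverage to counts are not given in the sources used here, so an estimated count is not a tally of reads. Of 52550 identifiers 52403 were matched to a symbol in GENCODE vM21, which also gave exons and coordinates, and 147 were not. Groups came from the sample titles.

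Counts were filtered with filterByExpr, scaled by TMM and tested over 18795 genes with edgeR 4.0.16 (quasi-likelihood, Benjamini-Hochberg adjustment) in R 4.3.3 with limma 3.58.1. DESeq2 1.42.0 was an alternative, tested like edgeR on simulated data, where it recovered more of the changed genes at the dispersion of these data and made more false calls. SEs were derived from each F statistic and 95% intervals from the same fit. Log2 CPM used a prior count of 2. The members and lists were chosen with earlier results of these data known, and no set test was made. Exact permutation tests over the 6 libraries were made for the levels of the marker lists and for ratios and sums of members. Of the latter only that of Apoe to astrocyte markers is quoted. Named were all members, genes of the lists at an unadjusted p under 0.05 or among the 3 most abundant per exon length, the 5 genes most like Apod, marker genes that move with a member, and genes said to be named after their values were seen. The lists hold 2 genes that are counted but otherwise not reported here. Alternatives were DESeq2, other scalings and filters, each library left out and the replicate number as a block. Promoter windows came from RefSeq (GRCm38.p6).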

Additional observations from a re-analysis of the deposited data

How the results depend on the processing

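Alternatives with DESeq2 and a library left out, or with Sham2 and TBI1 left out together, were chosen after seeing the data. Over all genes 0 were called, 46 with DESeq2, 3 without Sham2 and TBI1, and 0 to 322 with 1 library left out (at most 1 with edgeR, without TBI1, and 35 to 322 with DESeq2, the highest without TBI2). Members called were 0, 1 with DESeq2 (Apod), and 0 to 1 with 1 library left out. Genes of the lists at an unadjusted p under 0.05 were 1, 3 with DESeq2, 2 with a filter of at least 1 count in any library, 5 without Sham2 and TBI1, and 1 to 7 with 1 library left out. The log2 fold change of Apod, a description since Apod was chosen from this contrast, was 1.01, 1.005 with DESeq2 and 0.92 to 1.16 with 1 library left out, and nothing is read from its call by DESeq2. With 1 library left out, by edgeR or DESeq2, Apoc1 ran from -0.089 to 0.96, Abcg1 from -0.049 to 0.25, Lcat from -0.14 to 0.45, Vldlr from -0.12 to 0.081 and Lrp8 from -0.85 to 0.17. Without Sham2 and TBI1 Abcg1 was -0.081, Vldlr -0.17 and Lrp8 -0.10. The signs of Apod, Apoe, Clu, Abca1 and Lrp1 held in all 20 alternatives. The causes of these changes were not tested. Same-numbered libraries did not deviate together (r of -0.0996, -0.065 and 0.15), and 1 of 3 sham libraries was closest to its own number. The highest r of any pair was 0.21, between Sham2 and TBI1, the libraries whose cell makeup stood apart. The numbers thus gave no sign of pairing the samples, but so few correlations cannot exclude it. With the replicate block 0 genes were called, 0 genes of the lists had an unadjusted p under 0.05, and Apod was at 1.02.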

Other observations

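Markers of further cell types and regions varied between libraries of the same group. Choroid plexus markers summed to 2027 and 2073 CPM in Sham1 and Sham3 and to 2354 CPM in TBI2, but to 54.4 CPM in Sham2, 241.9 CPM in TBI1 and 259.9 CPM in TBI3. Ttr, the transthyretin gene that is the most abundant of them, was at 26.3 CPM in Sham2 and at 2199 CPM in TBI2. Thalamic markers ran from 124.5 CPM in TBI1 to 963.6 CPM in TBI3, and the globin and other red cell genes from 117.0 CPM in TBI1 to 601.3 CPM in TBI2. Of the marker lists, 3 had groups that did not overlap, each with p = 0.1 in a two-sided exact permutation test, the smallest that 3 against 3 allow. The hippocampal list was lower in TBI by 0.88 on the log2 scale (0.35 without TBI1), the striatal list was 2.03 higher (0.36 without TBI1) and the neuron list was 0.14 lower (0.10 without TBI1, and 0.049 as a median over its genes).

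Reactive astrocyte markers summed to 646.0 CPM in TBI3, near Sham1 and Sham3, but most of that sum was Gfap at 540.9 CPM. Gfap and Serpina3n were lower in TBI3 than in all 3 sham libraries. Vim, Cd44, Lcn2 and Tnc were higher there than in Sham1 and Sham3, and Osmr lay between these. The list mean relative to sham was -0.75 in TBI3 on the log2 scale, against -1.28 in Sham1 and -1.02 in Sham3. Apod in TBI3, 285.4 CPM, was well above all 3 sham libraries. Lcn2, an acute-phase lipocalin, was at 15.3 CPM in Sham2, 8.22 CPM in TBI2 and 6.71 CPM in TBI1, and at 0.17 to 1.35 CPM in the other 3 libraries.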
